A study of Mus musculus with 12 samples.

Results

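The B7 family and CD40 costimulatory molecules were examined as a set of 9 genes in sorted mouse alveolar macrophages: Cd80, Cd86, Cd274, Pdcd1lg2, Icosl, Cd276, Cd40, Havcr2 and Vsir. The members were taken by gene symbol from a deposited table of 55291 genes, and all 9 were present and tested among 19633 genes. Alveolar macrophages came from lungs of female mice of strain C57BL6/NJ, aged 8 to 11 weeks. In the ozone group 6 mice breathed 0.8 ppm ozone for 4 h on each of 4 days, and in the control group 6 mice breathed filtered air on the same schedule. Lungs were taken 3 days after the last exposure, the cells were isolated by flow sorting in 2 batches of 3 mice per group, and each library came from a different mouse. The labels name no engineered allele and no other agent in either group.

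Antigen-presenting cells give T cells an antigen signal through MHC molecules and a second, costimulatory signal through surface proteins of the B7 family. CD80 and CD86 bind the activating receptor CD28 and the inhibitory receptor CTLA-4, and ICOS ligand binds ICOS. PD-L1 and PD-L2, the products of Cd274 and Pdcd1lg2, bind the inhibitory receptor PD-1, and B7-H3, the product of Cd276, and VISTA, the product of Vsir, restrain T cells in many settings. CD40, a receptor of the TNF receptor superfamily, receives CD40 ligand from T cells and signals through TRAF adaptors to NF-kB, while TIM-3, the product of Havcr2, is an inhibitory receptor found on T cells and myeloid cells. Alveolar macrophages are known as weak stimulators of naive T cells in the resting lung.

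Each value is a variance-stabilized, log2-like expression level from which the gene's average in filtered air had been taken away, so that the 6 control mice average 0 for every gene. The scale does not keep how abundant a gene is, so levels cannot be compared between genes. It also compresses differences of genes with few reads. The local slope of a value per log2 unit of reads is 0.117 at 10 reads and 0.762 at 1000 reads. A difference of a given size is therefore a lower bound on the log2 fold in reads. Relative depth, read from the step that 1 read makes in low genes, lay between 0.872 and 1.22, and counting error adds an SD of at most 0.0575 to a single value. RNA integrity numbers lay between 8.9 and 9.7 and did not differ between the groups beyond their spread (exact permutation test, two-sided, p = 0.747), and neither did depth (p = 0.827 in the same exact test). All 8 listed markers of alveolar macrophages were present in every mouse; Krt79 fell by 0.35 and Car4 rose by 0.32 after ozone (limma adjusted p = 0.0177 and 0.0460), and Car4 was still called in 4 of 12 fits with a mouse left out. Filtered-air mouse 4 had the lowest RNA integrity number and the highest marker mean of its group in 5 of 8 lists of other cell types, and it was the highest filtered-air mouse in 4 of the 9 members. Differences that its removal moves most are also given without it.

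After ozone, 7 of the 9 members had a lower mean and 2 a higher mean than in filtered air, and 2 passed the test, both lower. Cd80 fell most, by 0.54, and Icosl fell by 0.30. The 2 called members make up 22.2% of the set, where 4.25% of all genes tested were called, 1.84% lower and 2.41% higher. The ozone and filtered-air mice did not overlap in the same 2 members, against 3.53% of all genes in either direction (1.58% lower and 1.96% higher). At an unadjusted p under 0.05 there were 6 members, 5 lower and 1 higher, against 16.7% of all genes (8.29% lower and 8.43% higher). The median difference of the set was -0.20, beside -0.0033 over all genes tested. Called genes of the whole table had a median absolute difference of 0.25, so Cd80 lay above that size and Icosl close to it. Because these are bulk libraries, fewer cells carrying a transcript and less transcript per cell cannot be told apart.

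**Figure D1:**
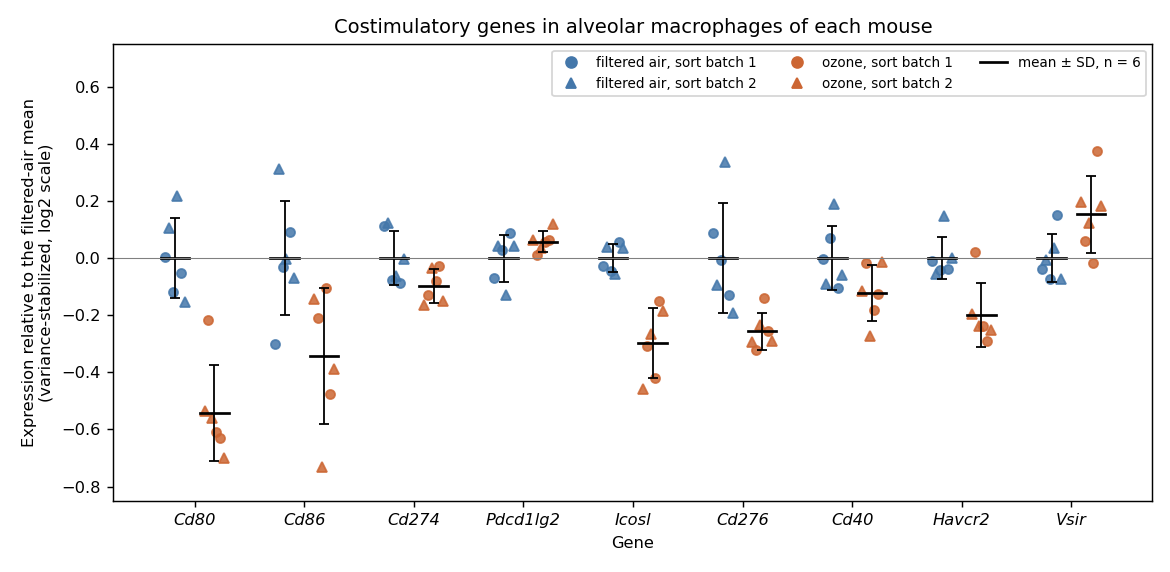
Expression of the 9 members in each mouse, on the vertical axis relative to the filtered-air mean (log2 scale). Points are mice, their shape gives the sort batch, and bars are the mean ± SD of 6 mice; the ozone mice lie below every filtered-air mouse in Cd80 and Icosl and overlap with them in the other 7 members.

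CD80 is the B7 protein that binds CTLA-4 most tightly and is usually induced on activation. In filtered air the Cd80 values ran from -0.15 through a median of -0.025 to 0.22, and after ozone from -0.70 through a median of -0.58 to -0.22. Every ozone mouse lay below every filtered-air mouse, although ozone mouse 2, at -0.22, stood well above the other 5, which lay at -0.54 or lower. The ozone mean was -0.54 ± 0.169 (SD, n = 6), and the control SD was 0.141. Cd80 fell by 0.54 (SE 0.0804, 95% interval -0.71 to -0.37, limma adjusted p = 0.00209), which ranked 80th by p-value among the 19633 genes and corresponds to at least a 1.46-fold lower number of normalized reads. The call held in each of the 12 fits that left out a single mouse, with differences from -0.61 without ozone mouse 2 to -0.49 without filtered-air mouse 4.

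ICOS ligand is the B7 protein that engages ICOS on activated T cells, and it is expressed by B cells and myeloid cells. Icosl values in filtered air were tight, from -0.056 through a median of 0.0034 to 0.056, with an SD of 0.0489, a size that counting error alone can reach (at most 0.0575). After ozone they ran from -0.46 through a median of -0.29 to -0.15. The groups were again fully separate, and the ozone mice were spread more widely, with ozone mouse 1 lowest and ozone mouse 5 highest. Icosl fell by 0.30 (SE 0.0535, 95% interval -0.41 to -0.18, limma adjusted p = 0.00620), to -0.30 ± 0.123 (SD, n = 6), at least a 1.23-fold lower number of normalized reads. Leaving out single mice gave a call in all 12 fits, with a difference of -0.33 where ozone mouse 5 was dropped and -0.26 where ozone mouse 1 was.

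Cd80 lies at chr16:38455561-38496335 on the plus strand and Icosl at chr10:78069302-78083913 on the plus strand (GRCm38, the build mm10; GENCODE M21), so the 2 called genes are on different chromosomes. The 250 bases before the RefSeq start of each are shown because these are the 2 members that fell. They are chr16:38458683-38458932 for Cd80 and chr10:78069118-78069367 for Icosl (RefSeq, GRCm38.p6, plus strand, 5′ to 3′), with matches to a loose NF-kB-type motif (GGG, any 5 bases, then CC) in capitals, searched on both strands. GENCODE starts each gene further upstream, so the Cd80 window lies inside its GENCODE span and the end of the Icosl window does too.
Cd80: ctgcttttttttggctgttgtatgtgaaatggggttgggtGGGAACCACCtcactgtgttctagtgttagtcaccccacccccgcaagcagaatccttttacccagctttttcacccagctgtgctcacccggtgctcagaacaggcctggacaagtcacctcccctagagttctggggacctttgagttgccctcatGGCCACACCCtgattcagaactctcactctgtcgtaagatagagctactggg
Icosl: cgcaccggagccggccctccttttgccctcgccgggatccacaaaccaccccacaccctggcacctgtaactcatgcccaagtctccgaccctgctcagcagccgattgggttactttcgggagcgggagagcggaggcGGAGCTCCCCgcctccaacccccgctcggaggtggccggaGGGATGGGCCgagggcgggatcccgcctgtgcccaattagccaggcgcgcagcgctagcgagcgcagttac
Each window held 2 such matches. In Cd80 they begin 210 and 52 bases before the start (GGGAACCACC and, on the other strand, GGCCACACCC), and in Icosl 111 and 71 bases before it (GGAGCTCCCC on the other strand and GGGATGGGCC). The motif is common: 45.8% of 32851 RefSeq windows of this length held a match, as did 4 of the 7 members with a window (Cd80, Icosl, Cd276 and Pdcd1lg2); Cd86 and Cd40 were not matched. A match to TGANTCA, the letters of an AP-1 site, began 42 bases before the Cd80 start (TGATTCA, directly after the second capital run and not overlapping it) and occurred in Havcr2 too, against 6.75% of all windows. TTCNNNGAA, a STAT-type motif found in 7.02% of windows, and GAAA, any 2 bases, then GAAA, an interferon response-type motif found in 2.98%, had no match in the 7 windows. The windows also differ in base composition, with a GC content of 52.8% in Cd80 and 68.8% in Icosl, beside a median of 52.4%.

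CD86, the other ligand of CD28 and CTLA-4, is commonly present before activation. Cd86 ran from -0.30 through -0.016 to 0.31 in filtered air and from -0.73 through -0.30 to -0.10 after ozone. The groups overlapped: 3 of the 6 ozone mice lay below every filtered-air mouse, and filtered-air mouse 1, at -0.30, lay among the ozone mice. The difference was -0.34 (SE 0.111, 95% interval -0.58 to -0.11, limma adjusted p = 0.108), the second largest of the set, but with the widest spread of the 9 members (SD 0.201 in filtered air and 0.239 after ozone). The difference in response between CD80 and CD86 was tested within each mouse, as Cd80 minus Cd86. It was -0.20 ± 0.253 (SD, n = 6) in exposed mice, with a control SD of 0.209, and this did not pass (two-sided exact permutation p = 0.173, and 0.173 after adjustment for 2 ligand pairs). Cd80 passed the test and Cd86 did not, and these values do not show that they responded differently.

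The PD-1 ligands lie next to each other on chromosome 19 and had smaller differences. Cd274, which encodes PD-L1, ran from -0.088 to 0.12 in filtered air and from -0.16 to -0.027 after ozone, a difference of -0.097 (SE 0.0476, 95% interval -0.20 to 0.0050, limma adjusted p = 0.329). Pdcd1lg2, which encodes PD-L2, ran from -0.13 to 0.087 and from 0.0099 to 0.12, a difference of 0.058 (SE 0.0418, 95% interval -0.032 to 0.15, limma adjusted p = 0.557). Without filtered-air mouse 4, the lowest control in Pdcd1lg2, that difference was 0.029 (limma adjusted p = 0.798). All 6 ozone mice were below the filtered-air mean in Cd274 and above it in Pdcd1lg2, with overlapping groups in both genes. Cd274 minus Pdcd1lg2 within a mouse was -0.15 ± 0.0776 (SD, n = 6) in exposed mice, with a control SD of 0.132 (two-sided exact permutation p = 0.0390, and 0.0779 after adjustment for 2 pairs). It passed without filtered-air mouse 5 (-0.19, adjusted p = 0.0173 in the exact permutation test) and in none of the other 11 fits that left out a mouse. Pdcd1lg2 overlaps an antisense gene, A930007I19Rik, and whether counting used the strand is not given in the sources used here.

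B7-H3 and TIM-3 had differences that fell just short of the threshold. Cd276 ran from -0.19 through -0.051 to 0.34 in filtered air and from -0.32 through -0.27 to -0.14 after ozone, a difference of -0.26 (SE 0.0748, 95% interval -0.42 to -0.096, limma adjusted p = 0.0732). Filtered-air mouse 4 was the highest in Cd276, at 0.34, and without it the difference was -0.18 (limma adjusted p = 0.0629). Cd276 passed in 4 of the 25 alternative fits. These were the fits with no batch covariate, with RNA integrity as a covariate, with the replicate block, and without filtered-air mouse 6 (-0.30, limma adjusted p = 0.0361). Havcr2 ran from -0.055 through -0.024 to 0.15 in filtered air and from -0.29 through -0.24 to 0.022 after ozone, a difference of -0.20 (SE 0.0540, 95% interval -0.31 to -0.082, limma adjusted p = 0.0549). In both genes 5 of 6 ozone mice lay below every filtered-air mouse. The exception in Havcr2 was ozone mouse 2, at 0.022, and without it Havcr2 passed with a difference of -0.25 (limma adjusted p = 0.00726). Havcr2 passed in 2 of the 25 alternative fits, that fit and the fit with no batch covariate.

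Cd40 and Vsir, like Cd86, Cd274 and Pdcd1lg2, did not pass in any of the 25 alternative fits. Cd40 ran from -0.10 to 0.19 in filtered air and from -0.27 to -0.014 after ozone, a difference of -0.12 (SE 0.0585, 95% interval -0.25 to 0.0037, limma adjusted p = 0.316), and 4 of 6 ozone mice lay below every filtered-air mouse. Without filtered-air mouse 4 the Cd40 difference was -0.080. Vsir ran from -0.072 to 0.15 in filtered air and from -0.017 to 0.38 after ozone, a difference of 0.15 (SE 0.0613, 95% interval 0.022 to 0.28, limma adjusted p = 0.208). It had the largest positive difference of the set, with 3 of 6 ozone mice above every filtered-air mouse and ozone mouse 5 highest. Vsir lies within the span of Cdh23 on the opposite strand, so reads of the overlap can be told apart only where strand was used.

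**Figure D2:**
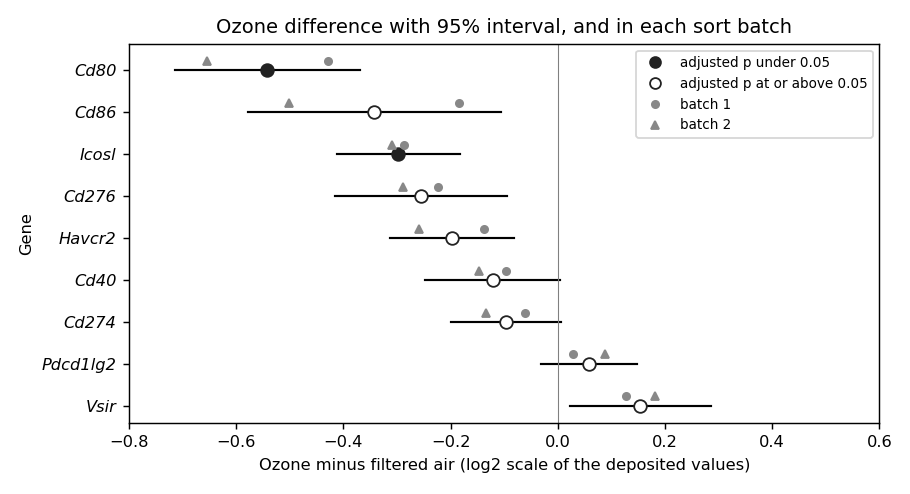
Ozone minus filtered air for each member (horizontal axis, log2 scale), with the 95% interval from limma; filled points have an adjusted p under 0.05. Small grey symbols give the difference within each sort batch, which has the same sign in both batches for all 9 members.

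The direction of each member was the same in both sort batches, with 3 mice against 3 in each. The Cd80 difference was -0.43 in batch 1 and -0.66 in batch 2, and the Icosl difference was -0.29 and -0.31. Cd86 differed most between them, at -0.18 and -0.50. In limma's interaction test none of these differences between batches passed (limma adjusted p = 1.00 for each), with 0 members at an unadjusted p under 0.05. Over all genes 0% passed that test and 2.6% had an unadjusted p under 0.05. Within a single batch neither Cd80 nor Icosl passed, with limma adjusted p-values of 0.142 and 0.160 in batch 1 and of 0.0885 and 0.245 in batch 2. Batch 1 alone called 90 genes in the whole table and batch 2 alone called 0, with 1800 at an unadjusted p under 0.05.

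B cells and dendritic cells can carry CD80, CD86, CD40 and ICOS ligand. The listed marker genes of both were above the lowest value in every mouse, which does not give the number of such cells. All 5 B cell markers had lower means after ozone, with differences from -0.29 to -0.18, and 0 were called by limma, with 3 at an unadjusted p under 0.05. Their mean ran from -0.25 to 0.35 in filtered air, highest in filtered-air mouse 4, and from -0.30 to -0.13 after ozone. Cd79a, part of the B cell receptor, had the smallest p, with a difference of -0.29 (SE 0.0867, limma adjusted p = 0.0853). Without filtered-air mouse 4 the Cd79a difference was -0.19. Of the 7 dendritic cell markers 6 were lower and 0 were called, with 1 at an unadjusted p under 0.05 (Clec9a, -0.14), and their mean overlapped widely, from -0.20 to 0.20 in filtered air and from -0.20 to 0.098 after ozone. With the B cell marker mean as a covariate, an alternative chosen after seeing the data, Cd80 was lower by 0.49 and Icosl by 0.34, and both kept their calls (limma adjusted p = 0.0358 and 0.0310). In the same fit the difference was -0.10 in Cd276, -0.13 in Havcr2 and -0.0092 in Cd40. It was -0.35 in Cd86, -0.17 in Cd274, 0.0087 in Pdcd1lg2 and 0.13 in Vsir, and none of these 7 members passed. Filtered-air mouse 4 stood far above the other mice in the B cell marker mean, at 0.35, with filtered-air mouse 3 next at 0.040. It was also the highest control in Cd276, Havcr2 and Cd40, and the covariate fit was not repeated without it. With the dendritic cell marker mean as a covariate, also chosen after seeing the data, the differences were -0.57 in Cd80, -0.28 in Icosl and -0.34 in Cd86.

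**Figure D3:**
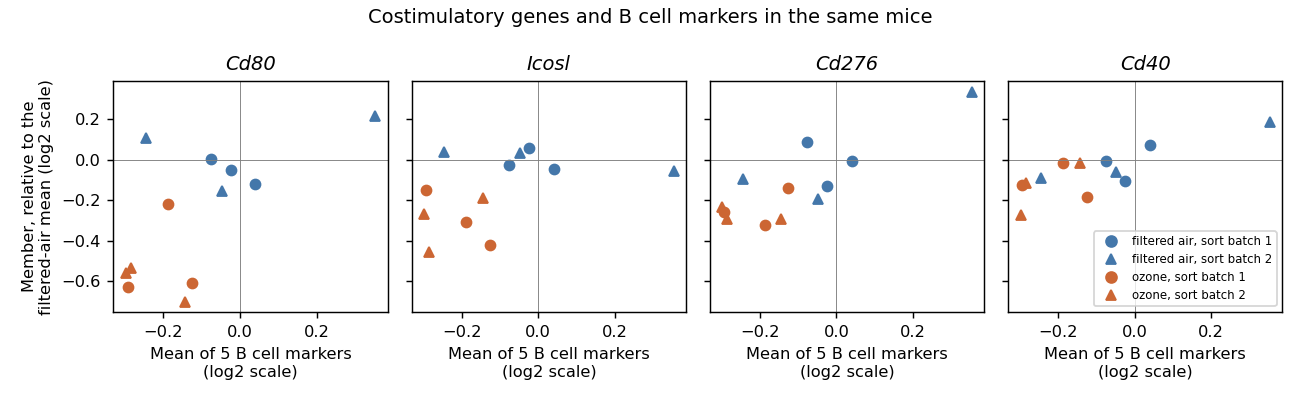
Each panel sets a member (vertical axis) against the mean of 5 B cell markers (horizontal axis) in the same mouse, both on the log2 scale relative to filtered air. The ozone mice span -0.30 to -0.13 in the marker mean, where only filtered-air mouse 2 of the controls lies, and filtered-air mouse 4 is highest on both axes in Cd80, Cd276 and Cd40.

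Other lists of cell types gave few calls. T cell, NK cell, neutrophil, endothelial and monocyte or interstitial macrophage markers had 0 called genes, with 0, 0, 0, 0 and 2 at an unadjusted p under 0.05, and the leading members of the first 4 lists were Cd5 (-0.051), Eomes (-0.086), S100a8 (0.085) and Kdr (-0.18). With single mice left out, Cd5 ranged from -0.082 to -0.022 and Eomes from -0.11 to -0.059. S100a8 ranged from 0.041 to 0.15, and Kdr from -0.26 to -0.086. The neutrophil genes Ly6g and Ngp were above the lowest value in 1 and 2 mice, and Camp in 0. Among epithelial markers Epcam fell by 0.55 (SE 0.0992, limma adjusted p = 0.00620), while the medians of that list and of all genes were -0.021 and -0.0033. The part of other cells in the results for the costimulatory genes was not tested. The covariate fits above, for B cells and dendritic cells only, were chosen after seeing the data and do not test it.

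Partner genes of the costimulatory molecules were described from 7 lists holding 62 genes, of which 56 were tested. Of these, 3 were called, 2 higher and 1 lower, or 5.36%, close to the 4.25% of all genes. At an unadjusted p under 0.05 in limma there were 16 of 56, a larger share than the 16.7% of all genes that reached it. The median difference over the 56 genes was -0.044, with 34 lower and 22 higher.

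Receptors on T cells (Cd28, Ctla4, Icos, Pdcd1 and Cd40lg) gave 0 calls and 0 genes at an unadjusted p under 0.05 in limma, with differences from -0.056 to 0.0039. Ctla4, whose product binds CD80 and CD86, had the smallest p (-0.053, limma adjusted p = 0.758). Its difference ranged from -0.11 without filtered-air mouse 1 to -0.017 without filtered-air mouse 4. CD40 signalling genes gave 0 calls among 11 and 4 at an unadjusted p under 0.05 in limma, with 8 lower and a median of -0.085. Nfkb2, the precursor of a subunit of the noncanonical NF-kB pathway, had a difference of -0.19 (SE 0.0544, limma adjusted p = 0.0714), with 5 of 6 ozone mice below every filtered-air mouse. Among transcription factors and turnover genes of CD80 and CD86, 0 of 9 were called and 1 had an unadjusted p under 0.05 in limma. That gene was Cd83, which encodes an activation marker that limits CD86 turnover (-0.21, limma adjusted p = 0.185).

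Among interferon, STAT and CMTM regulators of PD-L1 and PD-L2, 1 of 10 was called and 4 had an unadjusted p under 0.05. Stat3, a cytokine-activated transcription factor, fell by 0.17 (SE 0.0450, limma adjusted p = 0.0484), to -0.17 ± 0.0654 (SD, n = 6), with a control SD of 0.0785. Of 12 fits with a mouse left out, 1 kept the call (filtered-air mouse 3 dropped). 

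Among TIM family genes and partners of TIM-3 and VISTA, 1 of 7 was called and 5 had an unadjusted p under 0.05. Ceacam1, which encodes an adhesion receptor described as a TIM-3 partner, rose by 0.38 (SE 0.0865, limma adjusted p = 0.0213). It ran from -0.20 through -0.053 to 0.43 in filtered air and from 0.26 through 0.39 to 0.51 after ozone, and filtered-air mouse 4 was the mouse at 0.43. Without that mouse Ceacam1 rose by 0.48 (limma adjusted p = 0.000109), while dropping filtered-air mouse 2, or ozone mouse 4 or 5, ended the call (limma adjusted p from 0.0501 to 0.0529). Lgals9, which encodes the TIM-3 ligand galectin-9, had a difference of -0.17 (limma adjusted p = 0.0727), and Selplg, which encodes the VISTA-binding protein PSGL-1, one of 0.15 (limma adjusted p = 0.0549). These values were chosen after being seen, because they stand near the threshold.

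Among other B7-related, butyrophilin and nectin genes, 1 of 7 tested was called, which was also the only 1 at an unadjusted p under 0.05. Nectin2, which encodes a ligand of the receptors TIGIT and CD226, rose by 0.16 (SE 0.0422, limma adjusted p = 0.0468), and was called in 2 of 12 fits with a mouse left out (filtered-air mouse 4 or ozone mouse 2). The butyrophilin genes Btn1a1, Btn2a2 and Btnl2 were above the lowest value in 1, 2 and 4 mice and were not tested. TNF superfamily costimulators gave 0 calls among 7 and 1 gene at an unadjusted p under 0.05 in limma. It was Tnfsf14, which encodes LIGHT (0.12, limma adjusted p = 0.0797), while Cd70 had no value above the lowest in any mouse.

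**Figure D4:**
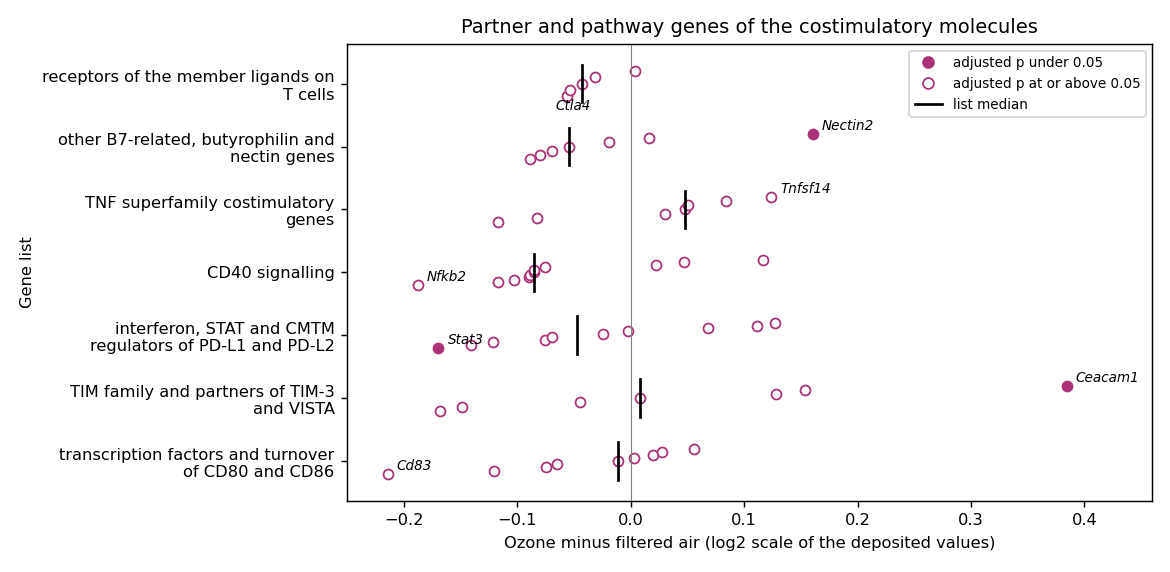
Ozone minus filtered air (horizontal axis, log2 scale) for the 56 tested partner genes in 7 lists. Each point is a gene, filled where the adjusted p is under 0.05 (Nectin2, Stat3 and Ceacam1), and black lines are list medians, which lie between -0.085 and 0.048.

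The genes most like the called members were ranked by Pearson r of deviations from the mean of their group and batch over the 12 mice, among 19632 genes. The genes compared share each mouse's library and its depth, and the highest r among so many genes is high by selection, so the ranking is a description. For Cd80 they were Cckar (0.95), Riok3 (0.94), Pla1a (0.92), Dusp16 (0.90) and Gpr35 (0.90). Without the 2 mice that deviate most in Cd80, ozone mouse 2 and filtered-air mouse 4, these values lay between 0.69 for Pla1a and 0.91 for Riok3. Pla1a, which encodes a phospholipase, and Dusp16, which encodes a MAP kinase phosphatase, also fell after ozone, by 0.47 and 0.43 (limma adjusted p = 0.00728 and 0.0185). For Icosl they were Apol8 (0.94), Fmnl1 (0.92), Rundc1 (0.91), Spindoc (0.91) and Usp16 (0.91), of which Rundc1 fell by 0.13 (limma adjusted p = 0.0401) and was called in 2 of 12 fits with a mouse left out.

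Within each group of 6 mice 36 pairs of members were correlated, 72 relations in all. With 720 pairings the smallest exact permutation p is 0.00139, which a single relation among 72 carries to an adjusted p of 0.1, so no relation could pass on its own and the correlations are a description. After Benjamini-Hochberg adjustment 0 passed (7 had an unadjusted p under 0.05 for Pearson r and 4 for Spearman rho). The smallest p belonged to Icosl and Cd40 in filtered air, with r = -0.92 (exact permutation p = 0.00139, adjusted p = 0.1) and rho = -1 (exact permutation p = 0.00278, adjusted p = 0.2). Without the 2 mice farthest from the Icosl median r was -0.96. Pdcd1lg2 and Cd276 in filtered air had r = -0.93 (exact permutation p = 0.0111, adjusted p = 0.4) and rho = -0.83 (exact permutation p = 0.0583, adjusted p = 0.6). Their r was -0.39 without the 2 mice farthest from the Pdcd1lg2 median. Also in filtered air, Cd276 and Cd40 had r = 0.89 (exact permutation p = 0.0236, adjusted p = 0.425) and rho = 0.77 (exact permutation p = 0.103, adjusted p = 0.673), both genes being highest in filtered-air mouse 4, and r was 0.70 without the 2 mice farthest from the Cd276 median. After ozone Cd80 and Havcr2 had r = 0.96 (exact permutation p = 0.0194, adjusted p = 0.425) and rho = 0.89 (exact permutation p = 0.0333, adjusted p = 0.6), both genes being highest in ozone mouse 2. Without the 2 mice farthest from the Cd80 median r was 0.86. Other relations with an unadjusted p under 0.05 are not reported here.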

How the data were processed

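RNA of flow-sorted alveolar macrophages was measured in 12 libraries, made with a stranded mRNA kit and read as paired ends per the labels' protocols. The deposited table gives variance-stabilized log2 values that the authors had corrected for batch, per the file's name; the submitters' processing notes name cutadapt, STAR 2.7.7a, Salmon 1.5.2, DESeq2 1.26.0, R 3.6.0, limma 3.42.2 and the build mm10, with no roles. In the values, each gene's filtered-air mean is 0. The total number of reads is unknown, and 0 columns were unmatched.

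Genes were tested where at least 6 of 12 mice lay above the lowest value shared within a batch (tolerance 1e-06), which kept 19633 of 25444 varying genes. limma 3.58.1 in R 4.3.3 was fitted over all of them with sort batch as a covariate, because the batch correction had used a degree of freedom; p-values are two-sided and Benjamini-Hochberg adjusted over all genes, with a threshold of 0.05. Depth was read from the 1-read step under an inverse hyperbolic sine curve, on which 79.0% to 84.4% of low values (up to 5 reads) came out whole (tolerance 0.1 read). The fit was tested on simulated data: of 50 changed genes at each size, 46% were recovered at a difference of 0.2, 80% at 0.3 and 94% at 0.5, with 12 false calls. Exact permutation tests ran over 924 assignments of mice, or 720 pairings for correlations.

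The members, lists and tests were chosen with earlier results of these data known. Named genes are the 9 members, the called genes of each list or else its member with the smallest p, and the 5 genes most like each called member; others are said to be chosen after their values were seen, and some list genes are not reported here. Alternatives were other filters, no batch covariate, a variance trend, a robust fit, median centring, quantile normalization, RNA integrity as a covariate, a replicate block, single batches, and single mice left out.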

Additional observations from a re-analysis of the deposited data

Results flagged for a closer look

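The highest or lowest mouse was compared with the other 5 of its group for 9 members, 2 ligand differences, 9 marker means, RNA integrity and depth (44 checks over both groups with Dixon's test at the 95% level), and 4 stood apart, where chance gives about 2.2. Ozone mouse 2 was the highest of its group in Cd80, at -0.22 (gap 0.659 of the range), and in Havcr2, at 0.022 (gap 0.696). Without it Cd80 fell by 0.61 and Havcr2 by 0.25. Filtered-air mouse 4 was the highest of its group in Havcr2, at 0.15 (gap 0.725), and in the NK cell marker mean, at 0.38 (gap 0.703). Without it the Havcr2 difference was -0.17 (limma adjusted p = 0.104).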

How the results depend on the processing

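Of 225 results for the 9 members under 25 alternatives, 215 kept their direction and their side of the threshold, 4 lost the call, 6 gained it and 0 changed sign. The losses were Cd80 and Icosl in either batch alone, which use fewer mice. The gains were Cd276 with no batch covariate, with RNA integrity, with the replicate block and without filtered-air mouse 6, and Havcr2 with no batch covariate and without ozone mouse 2. Members called numbered 4 with no batch covariate, 0 in batch 1 and 0 in batch 2, and 2 to 3 without single mice. Genes called in all, 834, numbered 171 after quantile normalization, 90 in batch 1, 0 in batch 2 and 319 with the B cell marker mean (chosen after seeing the data), and 538 (without filtered-air mouse 1) to 751 without single mice. Partner genes called, 3, numbered 7 with no batch covariate, 1 with the variance trend, 0 after quantile normalization, 1 in batch 1, 0 in batch 2, 1 with the B cell marker mean, and 0 (without filtered-air mouse 2 or ozone mouse 5) to 3 without single mice. Cd274 minus Pdcd1lg2 ranged from -0.19 to -0.12 without single mice and Cd80 minus Cd86 from -0.27 to -0.14. Of 675 results for the other genes chosen by the naming rule, 572 kept direction and side of the threshold, 88 lost the call, 10 gained it and 5 changed sign; for Nectin2, Stat3 and Ceacam1 together 41 of 75 lost the call. Among the genes chosen by that rule, signs changed in 3 that were not called. They were Ctla4 (0.030 in batch 1, 0.037 with the B cell marker mean), Kdr (0.077 with that mean) and Spindoc (-0.0021 to 0.051 without single mice, negative without ozone mouse 5, and -0.029 with that mean). Sign changes of list genes outside the rule were not counted. The cause was not tested.

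Replicate numbers occur in both groups but belong to different mice. Deviations of same-numbered mice correlated from -0.0026 to 0.28, over 0.1 in 4 of 6 pairs, and 6 of 12 mice correlated best with their own number. With the replicate block 853 genes, 3 members and 2 partner genes were called. Nectin2 (limma adjusted p = 0.0565) and Stat3 (limma adjusted p = 0.0646) were not called with the block.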

Other observations

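Genes beside the called members were looked at after Pla1a had appeared among the genes most like Cd80, so this choice followed the data. Within 100 kb of Cd80 on chromosome 16, 8 genes were tested, and 1 was called. Pla1a, which lies 22.4 kb before Cd80 on the opposite strand (chr16:38396117-38433145), fell by 0.47 (SE 0.0864, limma adjusted p = 0.00728) and was called in all 12 fits with a mouse left out. With the B cell marker mean as a covariate, chosen after seeing the data, Pla1a was not called (-0.36, limma adjusted p = 0.112). Genes closer to Cd80 had small differences that did not pass: 0.019 for Adprh at 2.86 kb, 0.082 for D930030I03Rik at 2.07 kb and 0.0062 for Timmdc1 at 2.01 kb. Within 100 kb of Icosl 4 genes were tested and 0 were called by limma. Trpm2, which encodes a calcium channel opened by oxidative stress, had a difference of 0.31 (limma adjusted p = 0.144) and Pfkl, a glycolytic enzyme, one of 0.10 (limma adjusted p = 0.245), both with an unadjusted p under 0.05.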
